A study of Mus musculus with 12 samples.

Results

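The 9 genes studied here, which start, brake or dissolve a blood clot, were followed in mouse lung after paraquat. The set held 9 of the 20774 genes in the deposited tables, and each was found by an exact match of its gene symbol: F3, Tfpi, Thbd, Procr, Vwf, F13a1, Plau, Plaur and Plat. The lungs came from wild-type C57BL/6J mice labelled as 8 weeks old, and none of the groups carried a transgene or a deletion. The PQ groups had received paraquat, a herbicide that generates reactive oxygen species in the lung, in saline through the trachea in a single dose, and the control groups had received saline by the same route. The 12 libraries fell into 4 groups of 3, namely PQ 1w, control 1w, PQ 4w and control 4w, with 1w and 4w read as weeks after instillation. RNA was taken from homogenized lung, so each value is a sum over all cells of the piece, and fewer cells of a type cannot be told apart from less RNA per cell.

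Clotting in tissue starts when tissue factor, the product of F3, binds factor VII, and the pathway is held back by tissue factor pathway inhibitor, the product of Tfpi. Thrombin that binds thrombomodulin (Thbd) on the vessel wall activates protein C instead of cleaving fibrinogen, and the endothelial protein C receptor (Procr) speeds that step. Von Willebrand factor (Vwf) tethers platelets and carries factor VIII, the A chain of factor XIII (F13a1) crosslinks fibrin, and urokinase (Plau), its receptor (Plaur) and tissue plasminogen activator (Plat) turn plasminogen into plasmin, which dissolves fibrin. Lung capillaries are known to be rich in thrombomodulin, and fibrin that leaks into the air spaces is a known feature of acute lung injury.

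The libraries held 17220978 to 18559809 expected counts each. The filter on low counts kept 15921 genes for testing, all 9 genes of the set among them. Levels are given as CPM, counts scaled to the same library total, ± marks the SD of CPM or of a log2 ratio and the standard error of a log2 effect, and n = 3 per group throughout. Effects came from edgeR's quasi-likelihood test, fitted to the 12 libraries together, with p adjusted by the Benjamini-Hochberg method over all tested genes, and a gene rose or fell where the adjusted p was under 0.05. The labels number the replicates without saying whether each was a different mouse, and the p-values therefore reflect the spread among these libraries, which may be technical. PQ 4w replicate 3 differed more from the other libraries of its group than any other library did, with a chi-square per degree of freedom of 30.8 and 32.9 against 7.12 to 15.4 for the other pairs. Markers of lung cells were present in all libraries, with 8 alveolar type 1 markers summing to 3022 to 7231 CPM and 12 endothelial markers to 3871 to 6954 CPM, while 6 liver cell markers summed to 1.32 to 3.36 CPM.

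Promoter sequence was at hand in the RefSeq table (GRCm38.p6) for 5 of the 9 genes, in 7 windows of 250 bases before a transcription start. The Plaur window lay wholly within the gene's interval (24460937 to 24475970), as did a further window each of Tfpi and F13a1. The Procr window lay partly within its own interval, which starts at 155751125. Such a window precedes a start inside the gene and not the outer end of its interval. The windows were searched on both strands for TGANTCA, the letters bound by AP-1, a transcription factor known to act at the F3 and PLAUR promoters in human cells. The motif lay in the windows of F3, Procr and Plaur, which are shown because they hold it, with its letters in capitals. For comparison, 2217 of 32851 promoter windows, or 6.75%, held it.
F3 promoter, chr3:121723287-121723536, plus strand: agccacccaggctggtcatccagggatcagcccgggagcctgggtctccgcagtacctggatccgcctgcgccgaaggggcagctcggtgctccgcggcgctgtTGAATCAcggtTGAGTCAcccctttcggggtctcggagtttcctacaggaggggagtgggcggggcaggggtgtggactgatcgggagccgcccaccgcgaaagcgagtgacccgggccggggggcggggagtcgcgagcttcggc
Procr promoter, chr2:155750967-155751216, plus strand: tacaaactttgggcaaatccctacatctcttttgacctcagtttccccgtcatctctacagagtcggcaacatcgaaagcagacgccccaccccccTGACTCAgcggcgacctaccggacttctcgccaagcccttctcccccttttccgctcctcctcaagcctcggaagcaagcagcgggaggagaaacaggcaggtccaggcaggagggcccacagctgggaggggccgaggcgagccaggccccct
Plaur promoter, chr7:24462233-24462482, plus strand: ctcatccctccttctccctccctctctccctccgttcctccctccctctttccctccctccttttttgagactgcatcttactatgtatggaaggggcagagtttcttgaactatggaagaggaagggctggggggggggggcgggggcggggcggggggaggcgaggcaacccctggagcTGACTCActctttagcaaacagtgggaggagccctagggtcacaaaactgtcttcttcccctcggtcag
F3 had 2 matches, whose first bases lay 146 and 135 bases before the start, Procr had 1 at 154 bases and Plaur had 1 at 69 bases. The windows of F3 and Plaur also held 3 copies each of GGGCGG, the letters of a GC box, which 32.7% of all windows held at least once. Neither window of Tfpi, which also rose at 1w, nor of F13a1 held TGANTCA, and promoters of Thbd, Vwf, Plau and Plat were not analysed here. A match is a run of letters and not a measured binding site.

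At 1w tissue factor, its inhibitor, the protein C receptor, urokinase and the urokinase receptor were higher in PQ lungs than in control lungs at the level of RNA, and thrombomodulin was lower. Of the 9 genes, F3, Procr, Tfpi, Plau and Plaur rose, Thbd fell, and Vwf, F13a1 and Plat did not pass the test. The share of all tested genes that passed was 48.8%, made up of 25.9% that were higher in PQ lungs and 22.9% that were lower, so a count of 6 of 9 lies near that background. The median log2 effect was 0.50 over the 9 genes and 0.00 over all genes. The 3 PQ and 3 control values did not overlap for 7 of the 9, against 58.7% of all genes.

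**Figure D1:**
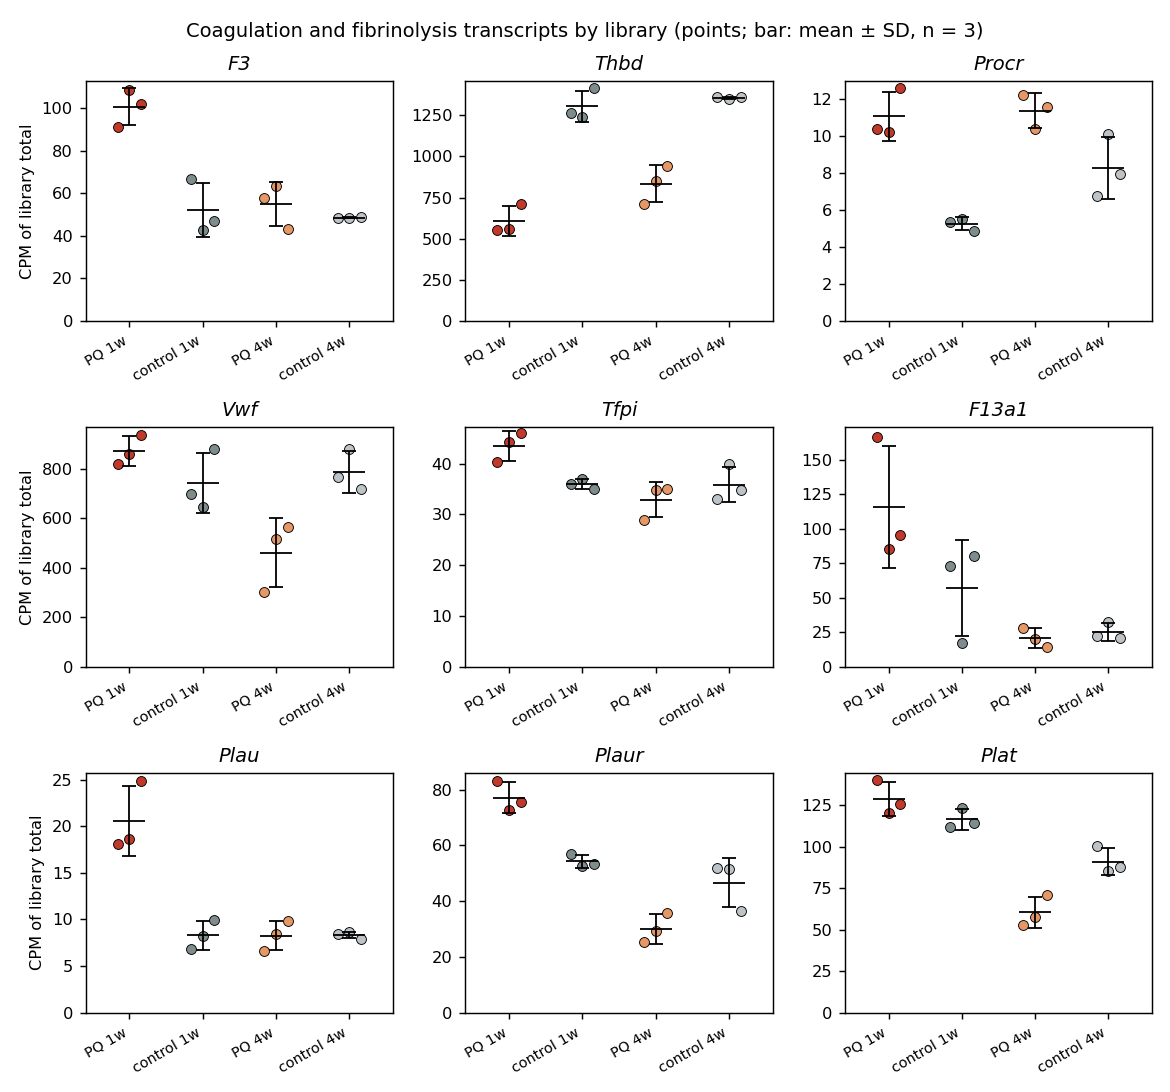
Level of each of the 9 genes in CPM of the library total, with 1 point per library, bars for the mean ± SD of each group and PQ left of control at each time. The Thbd values of PQ libraries lie below all control libraries at both times, and those of F3, Plau and Plaur are highest in the PQ 1w libraries.

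F3 (gene ID 14066, chromosome 3, 121723537 to 121735052 in GRCm38) encodes the cell surface protein that triggers clotting. Its level was 91.5, 109 and 102 CPM in PQ 1w lungs, against 66.7, 42.8 and 47.0 CPM in control 1w lungs. Every PQ 1w value lay above every control 1w value, and the rise was 1.92-fold (log2 0.94 ± 0.16, adjusted p = 0.000407). At 4w it was 57.9, 63.5 and 43.4 CPM in PQ lungs, against 48.6, 48.4 and 48.9 CPM in control lungs. The groups overlapped at 4w, and the effect was 0.10 ± 0.16 on the log2 scale with an adjusted p of 0.713.

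Tfpi (gene ID 21788, chromosome 2, 84432855 to 84476775) encodes the inhibitor of the tissue factor and factor VIIa complex. It had 40.2, 44.2 and 45.9 CPM in PQ 1w lungs, against 36.02, 37.0 and 35.1 CPM in control 1w lungs. The groups did not overlap, but the rise was small, at 1.196-fold (log2 0.26 ± 0.09, adjusted p = 0.0302). Its call was lost without control 1w replicate 1 (adjusted p = 0.0706) or replicate 3 (0.0820) and without PQ 1w replicate 2 (0.0767) or replicate 3 (0.101). At 4w Tfpi had 29.0, 34.7 and 35.1 CPM in PQ lungs, against 33.1, 39.8 and 34.7 CPM in control lungs, with overlapping groups and a log2 effect of -0.19 ± 0.09 (adjusted p = 0.187). The transcript length that the authors deposited for Tfpi, which RSEM computes as an average over transcripts weighted by their estimated amounts, also differed at 1w. It was 2263, 2232 and 2195 bases in PQ 1w lungs, against 2380, 2355 and 2403 bases in control 1w lungs. The 2 groups did not overlap, with a difference of the means of -149 bases and a two-sided exact permutation p of 0.1, the smallest that 3 against 3 can give. At 4w the mean length was 2407 bases in PQ lungs and 2462 bases in control lungs, with overlapping groups (exact permutation p = 0.4).

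Set against each other within a library, F3 and Tfpi shifted at 1w. The log2 ratio of their CPM, each plus 0.5, was 1.203 ± 0.08 in PQ 1w lungs and 0.50 ± 0.34 in control 1w lungs, with no overlap (difference 0.70, two-sided exact permutation p = 0.1). At 4w the ratio was 0.72 ± 0.36 in PQ lungs and 0.44 ± 0.14 in control lungs, with overlap (difference 0.28, exact permutation p = 0.3). This was 1 of 8 such within-library comparisons, none of which can reach a p below 0.1 with 3 libraries a group.

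Thbd (gene ID 21824, chromosome 2, 148404471 to 148408188) encodes thrombomodulin, the thrombin receptor that switches thrombin to protein C activation. It had 550.2, 558 and 711 CPM in PQ 1w lungs, against 1266, 1238 and 1413 CPM in control 1w lungs. The highest PQ 1w value lay far below the lowest control 1w value, and Thbd fell by 1.12 ± 0.12 on the log2 scale, or 2.17-fold (adjusted p = 1.04e-05). At 4w Thbd had 714, 849.7 and 939.7 CPM in PQ lungs, against 1359, 1349.8 and 1358 CPM in control lungs. The groups again did not overlap, and Thbd fell by 0.77 ± 0.12 on the log2 scale, or 1.71-fold (adjusted p = 0.00227). No leave-one-out fit ended either call: over them the log2 effect was -1.24 to -1.05 at 1w and -0.86 to -0.66 at 4w.

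Procr (gene ID 19124, chromosome 2, 155751125 to 155755478) encodes the receptor that presents protein C to the thrombin and thrombomodulin complex, and it moved opposite to Thbd. It had 10.4, 10.2 and 12.6 CPM in PQ 1w lungs, against 5.38, 5.53 and 4.88 CPM in control 1w lungs. The groups lay well apart, and the rise was 2.08-fold (log2 1.06 ± 0.15, adjusted p = 9.51e-05). At 4w Procr had 12.2, 10.4 and 11.6 CPM in PQ lungs, against 6.76, 10.1 and 7.97 CPM in control lungs. The groups did not overlap, yet the log2 effect of 0.39 ± 0.14 missed the threshold (adjusted p = 0.0960). Without control 4w replicate 2, the highest control library for Procr, the effect was 0.55 and passed (adjusted p = 0.0434).

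Vwf (gene ID 22371, chromosome 6, 125552948 to 125686679) encodes the multimeric glycoprotein that endothelial cells store and release to catch platelets. It had 819, 858 and 938 CPM in PQ 1w lungs, against 699.8, 646 and 879 CPM in control 1w lungs, with overlapping groups (log2 0.22 ± 0.19, adjusted p = 0.364). At 4w Vwf had 302, 517 and 564 CPM in PQ lungs, against 766, 880.0 and 717 CPM in control lungs. All PQ 4w libraries were below all control 4w libraries, with replicate 1 lowest, and Vwf fell by 0.84 ± 0.19 on the log2 scale, or 1.79-fold (adjusted p = 0.0169). That call was lost in a fit of only the groups compared (adjusted p = 0.0769), without control 4w replicate 1 (0.0608) and without control 4w replicate 2 (0.0636).

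Endothelial markers moved in the same samples as these vessel wall genes. Of 12 markers of endothelium, 1 rose, 9 fell and 2 did not pass at 1w, and 2 rose, 9 fell and 1 did not pass at 4w. Their summed level was 3871 to 4488 CPM in PQ 1w lungs, against 6103 to 6954 CPM in control 1w lungs, and 4086 to 5364 CPM in PQ 4w lungs, against 6489 to 6817 CPM in control 4w lungs. None of the 12 was at 0 in any library, and their part in the Thbd and Vwf results was not tested. Relative to the mean log2 level of these markers in the same library, Vwf was at a log2 ratio of 1.69 ± 0.15 in PQ 1w lungs and 1.01 ± 0.18 in control 1w lungs (difference 0.68). At 4w the same ratio was 0.52 ± 0.34 in PQ lungs and 1.02 ± 0.16 in control lungs (difference -0.50). The groups did not overlap at either time, and relative to these markers Vwf was higher in PQ than in control lungs at 1w and lower at 4w, each with a two-sided exact permutation p of 0.1. Another 8 genes were listed as markers of venous and large vessel endothelium, the vessels where Vwf is best known. Of these, 3 rose and none fell at 1w, and 1 rose and 2 fell at 4w. Their sums were 716 to 857 CPM in PQ 1w lungs, 963 to 985 CPM in control 1w lungs, 364 to 717 CPM in PQ 4w lungs and 889 to 1074 CPM in control 4w lungs. One gene, Lyve1, carried most of the difference in these sums, with means of 345 CPM in PQ 1w, 532 CPM in control 1w, 214 CPM in PQ 4w and 542 CPM in control 4w lungs, and it passed at 4w but not at 1w (adjusted p = 0.0153 and 0.113). The sums therefore describe Lyve1 more than the listed vessels.

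F13a1 (gene ID 74145, chromosome 13, 36867178 to 37050244) encodes the transglutaminase chain of factor XIII, which macrophages, monocytes and platelets carry. It had 166, 85.5 and 95.8 CPM in PQ 1w lungs, against 73.1, 17.2 and 80.6 CPM in control 1w lungs. The groups did not overlap, but replicate 1 of PQ 1w was high and replicate 2 of control 1w low, and the log2 effect of 1.02 ± 0.44 missed the threshold (adjusted p = 0.0735). It passed without control 1w replicate 3 (log2 1.37, adjusted p = 0.0452), and was smaller without control 1w replicate 2 (log2 0.60, adjusted p = 0.136) or PQ 1w replicate 1 (log2 0.65, adjusted p = 0.282). At 4w F13a1 had 28.3, 20.1 and 14.3 CPM in PQ lungs, against 22.2, 32.4 and 21.1 CPM in control lungs, with overlapping groups and a log2 effect of -0.34 ± 0.47 (adjusted p = 0.684). It was the most variable gene of the set in every group, with a coefficient of variation of 38.0% in PQ 1w, 60.8% in control 1w, 33.9% in PQ 4w and 24.7% in control 4w lungs. Its interval overlaps the noncoding genes Gm30489 and Gm30240, which were not counted separately, and whether counting used strand is not given in the sources used here.

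Macrophage markers also moved at 1w, and monocyte markers moved in both directions. Of 10 macrophage markers 8 rose and 1 did not pass at 1w, while Lyz2, the most abundant, fell (adjusted p = 0.000116). Lyz2 averaged 3135 CPM in PQ 1w and 4846 CPM in control 1w lungs. With Lyz2 the sum was 4099 to 4412 CPM in PQ 1w lungs, against 4859 to 5458 CPM in control 1w lungs. Without Lyz2 the sum was 1006 to 1159 CPM in PQ 1w lungs, against 371 to 386 CPM in control 1w lungs. At 4w 6 rose and 1 fell, and that sum was 561 to 659 CPM in PQ lungs, against 303 to 347 CPM in control lungs. Of 8 monocyte markers Chil3 and Fn1 rose and Ccr2 and Treml4 fell at 1w, and Fn1 and Ly6c2 rose and none fell at 4w. The monocyte sum without Fn1 was 2846 to 3320 CPM in PQ 1w lungs, against 1976 to 2337 CPM in control 1w lungs, and 1786 to 2083 CPM in PQ 4w lungs, against 1866 to 2009 CPM in control 4w lungs. Chil3 alone carried the higher sum at 1w, with a mean of 1292 CPM in PQ 1w and 291 CPM in control 1w lungs. Ace, the largest of the rest, had 1643 CPM in PQ 1w and 1652 CPM in control 1w lungs. The sum therefore describes Chil3 and Ace more than the other listed genes. The median log2 effect of the 8 monocyte markers was -0.30 at 1w.

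Markers of other cell types moved at 1w as well. Of 8 fibroblast and smooth muscle markers 5 rose and 1 fell at 1w and none passed at 4w. Their sum was 7831 to 8841 CPM in PQ 1w, 2280 to 2425 CPM in control 1w, 2164 to 2454 CPM in PQ 4w and 2003 to 2224 CPM in control 4w lungs. Col1a1 and Col1a2 carried most of the higher sum at 1w. Col1a1 averaged 3992 CPM in PQ 1w and 624 CPM in control 1w lungs, and Col1a2 averaged 3047 and 662 CPM. At 1w Pdgfra fell, and Dcn and Myh11 did not pass. Of 5 tested mesothelium markers Msln rose at 1w and none passed at 4w, and their sum was 590 to 649 CPM in PQ 1w, 266 to 288 CPM in control 1w, 131 to 211 CPM in PQ 4w and 155 to 216 CPM in control 4w lungs. Msln carried most of the higher mesothelium sum at 1w, with means of 446 CPM in PQ 1w and 100.5 CPM in control 1w lungs. The other 4 mesothelium markers did not pass at 1w. Both sums were highest in the PQ 1w libraries, like the levels of F3, F13a1, Plau and Plaur. The macrophage sum without Lyz2 and the monocyte sum without Fn1 were highest there too. Of 7 airway epithelium markers 1 rose and 3 fell at 1w and 1 rose and 1 fell at 4w, and their sum was 4441 to 5555 CPM in PQ 1w, 22270 to 30960 CPM in control 1w, 23940 to 47700 CPM in PQ 4w and 46560 to 54140 CPM in control 4w lungs. Scgb1a1 carried most of the lower airway sum at 1w, with means of 3965 CPM in PQ 1w and 24410 CPM in control 1w lungs. All 7 alveolar type 2 markers fell at 1w, and 2 rose at 4w, while 2 of 8 alveolar type 1 markers fell at each time and 1 rose at 1w. Of 8 neutrophil markers 3 fell at 1w and 6 fell at 4w, and none rose. No marker of these lists was at 0 in every library of a group, and the part of these cell types in the F3, F13a1, Plau and Plaur results was not tested.

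Plau (gene ID 18792, chromosome 14, 20836662 to 20843388) encodes urokinase, the plasminogen activator of cell surfaces, and had the largest log2 effect of the set at 1w. It had 18.0, 18.7 and 24.8 CPM in PQ 1w lungs, against 6.84, 8.19 and 9.92 CPM in control 1w lungs. The groups lay apart, and the rise was 2.44-fold (log2 1.29 ± 0.18, adjusted p = 8.64e-05). At 4w it had 6.62, 8.42 and 9.79 CPM in PQ lungs, against 8.45, 8.62 and 7.91 CPM in control lungs, with overlapping groups and a log2 effect of -0.08 ± 0.18 (adjusted p = 0.816).

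Plaur (gene ID 18793, chromosome 7, 24460937 to 24475970) encodes the urokinase receptor, which holds the enzyme at the cell surface. It had 83.1, 72.5 and 75.5 CPM in PQ 1w lungs, against 56.9, 52.4 and 53.3 CPM in control 1w lungs. The groups did not overlap, and the rise was 1.41-fold (log2 0.50 ± 0.14, adjusted p = 0.00970). At 4w it had 25.1, 29.3 and 35.7 CPM in PQ lungs, against 51.8, 51.5 and 36.5 CPM in control lungs. The direction was now the opposite: Plaur fell by 0.70 ± 0.14 on the log2 scale, or 1.63-fold (adjusted p = 0.00960), although the lowest control 4w library lay close to the highest PQ 4w library. The call at 4w was lost in a fit of only the groups compared (adjusted p = 0.0632) and without control 4w replicate 1 (log2 -0.60, adjusted p = 0.0553).

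Plat (gene ID 18791, chromosome 8, 22757722 to 22782848) encodes tissue plasminogen activator, the form that works on fibrin and that endothelial cells release. It had 140.1, 120.1 and 125 CPM in PQ 1w lungs, against 112, 123 and 114 CPM in control 1w lungs, with overlapping groups (log2 0.13 ± 0.11, adjusted p = 0.342). At 4w it had 52.7, 57.9 and 70.9 CPM in PQ lungs, against 100.3, 85.0 and 87.6 CPM in control lungs. No PQ 4w library reached a control 4w library, and Plat fell by 0.66 ± 0.11 on the log2 scale, or 1.58-fold (adjusted p = 0.00408).

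Between the plasminogen activators the balance in PQ lungs lay further towards urokinase at both times. The within-library log2 ratio of Plau to Plat was -2.63 ± 0.31 in PQ 1w lungs and -3.74 ± 0.25 in control 1w lungs (difference 1.11). At 4w it was -2.80 ± 0.10 in PQ lungs and -3.37 ± 0.13 in control lungs (difference 0.57). Plau itself was higher at 1w, whereas at 4w Plat was lower and Plau did not pass. The ratio of the receptor to its ligand went the other way: Plaur to Plau was 1.90 ± 0.30 in PQ 1w lungs and 2.65 ± 0.30 in control 1w lungs, and 1.80 ± 0.05 in PQ 4w lungs and 2.40 ± 0.23 in control 4w lungs. The groups of the 4 comparisons in this paragraph did not overlap, each with a two-sided exact permutation p of 0.1.

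**Figure D2:**
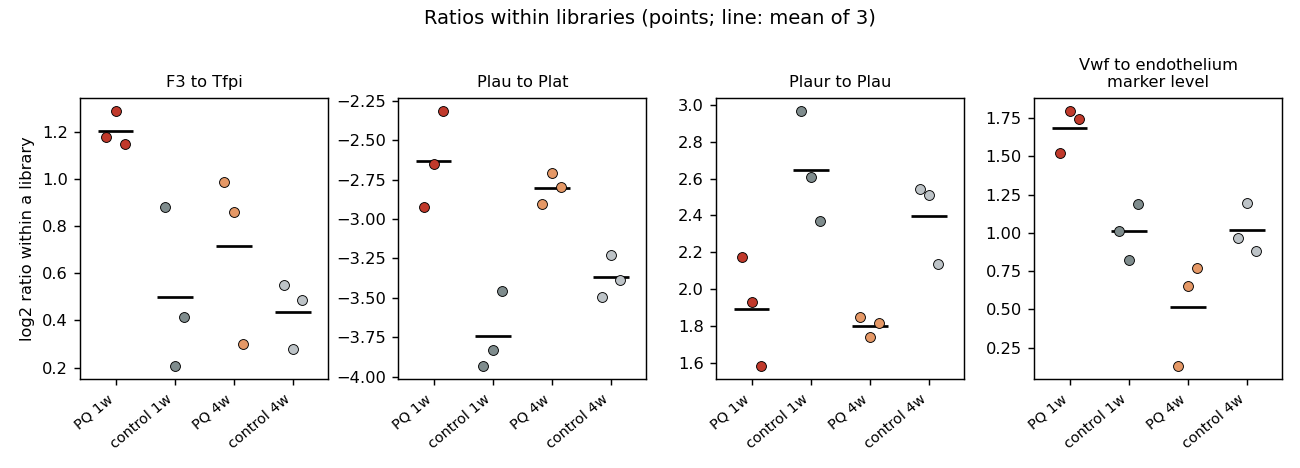
Within-library log2 ratios of CPM plus 0.5, with 1 point per library, a line at the mean of each group and PQ left of control at each time. Plau to Plat is higher and Plaur to Plau lower in PQ than in control libraries at 1w and at 4w, whereas Vwf relative to the endothelial markers is higher in PQ at 1w and lower in PQ at 4w.

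At 4w no gene of the set rose, Thbd, Vwf, Plaur and Plat fell, and F3, Procr, Tfpi, F13a1 and Plau did not pass. The share of all tested genes that passed was 12.1%, made up of 5.75% that were higher in PQ lungs and 6.39% that were lower. That balance turned with the scaling: 915 genes were higher and 1017 lower with TMM, and 1370 higher and 631 lower with library totals, while the 4 genes of the set fell with both. The median log2 effect was -0.34 over the 9 genes and 0.00 over all genes, and the groups of 5 of the 9 did not overlap, against 31.3% of all genes. The count of 4 became 2 in a fit of only the groups compared and without control 4w replicate 1, where Vwf and Plaur were the genes lost. Without PQ 4w replicate 3, the library that stood apart, the count was 4, with log2 effects of -0.86 for Thbd, -1.01 for Vwf, -0.84 for Plaur and -0.79 for Plat.

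The paraquat effects at 4w and 1w were compared by the interaction term, the effect at 4w minus the effect at 1w. The effect was lower at 4w for 7 of the 9 genes and higher for none, and Thbd and F13a1 did not pass, while over all tested genes 32.0% passed, 14.1% higher and 17.9% lower. The difference was -1.37 ± 0.25 for Plau (adjusted p = 0.00176), -1.20 ± 0.20 for Plaur (adjusted p = 0.000907) and -1.06 ± 0.27 for Vwf (adjusted p = 0.0115). It was -0.84 ± 0.22 for F3 (adjusted p = 0.0139) and -0.79 ± 0.16 for Plat (adjusted p = 0.00278). Tfpi followed with -0.45 ± 0.13 (adjusted p = 0.0178), a call lost without control 4w replicate 2 (adjusted p = 0.0533). Procr had -0.67 ± 0.20 (adjusted p = 0.0250), lost with limma on log2(FPKM + 1) (adjusted p = 0.0530) and without control 1w replicate 3 (0.0598), control 4w replicate 2 (0.0688), PQ 1w replicate 3 (0.0633) or PQ 4w replicate 2 (0.0535). For Thbd the difference was 0.35 ± 0.16 (adjusted p = 0.123), which passed without PQ 1w replicate 3 (0.47, adjusted p = 0.0404) or PQ 4w replicate 1 (0.46, adjusted p = 0.0308). F13a1 had -1.36 ± 0.65 (adjusted p = 0.128).

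**Figure D3:**
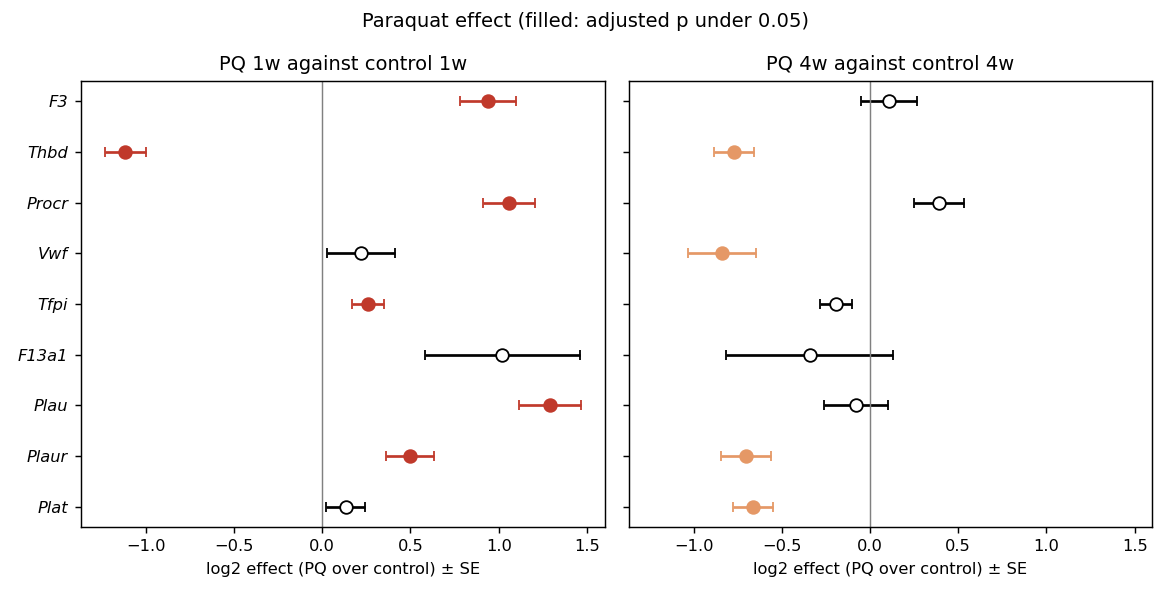
Log2 effect of PQ against control at both times for each of the 9 genes, with standard errors from the edgeR fit and filled points where the adjusted p was under 0.05. Thbd lies below 0 at both times, Plaur lies above 0 at 1w and below 0 at 4w, and Vwf and Plat lie clearly below 0 at 4w.

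Compared directly, PQ 4w lungs were lower than PQ 1w lungs for 7 of the 9 genes, Thbd was higher, and Procr did not pass. Of all tested genes 54.5% passed this comparison, 26.7% higher and 27.8% lower. The groups did not overlap for 8 of the 9 genes, against 61.1% of all genes. F13a1 averaged 20.9 ± 7.08 CPM in PQ 4w lungs and 115.9 ± 44.0 CPM in PQ 1w lungs (log2 -2.55 ± 0.47, adjusted p = 0.000715), the largest difference of the set. Plaur averaged 30.1 ± 5.32 CPM in PQ 4w lungs and 77.0 ± 5.47 CPM in PQ 1w lungs (log2 -1.43 ± 0.14, adjusted p = 7.37e-06). The remaining differences were -1.38 for Plau, -1.16 for Plat, -0.98 for Vwf, -0.94 for F3 and -0.47 for Tfpi, with adjusted p from 6.39e-06 to 0.00110. Thbd was 0.39 ± 0.12 higher on the log2 scale (adjusted p = 0.0123), a call lost without PQ 1w replicate 1 (0.0603) or 2 (0.0525) or PQ 4w replicate 3 (0.0629). For Procr the difference was -0.03 ± 0.14 (adjusted p = 0.871). Control lungs were treated with saline only, so control 4w against control 1w shows the background: Procr was the 1 gene of the set that passed, with 8.28 ± 1.69 CPM in control 4w lungs and 5.26 ± 0.34 CPM in control 1w lungs (log2 0.64 ± 0.15, adjusted p = 0.0266), where 10.1% of all tested genes passed, 5.9% higher and 4.2% lower. The control groups did not overlap for 3 of the 9 genes, against 34.0% of all genes. The Procr call was lost without control 1w replicate 1 (adjusted p = 0.0677) or 3 (0.107) and without control 4w replicate 2 (0.101) or 3 (0.0665). Plat missed the threshold there (log2 -0.36 ± 0.11, adjusted p = 0.0570) and passed without PQ 4w replicate 1 (0.0367) or 3 (0.0163), with RLE scaling (0.0491), with DESeq2 (0.0155) and with only the groups compared (0.0196). F13a1 (log2 -1.18 ± 0.46, adjusted p = 0.116) passed without control 1w replicate 2 (log2 -1.63, adjusted p = 0.0206).

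Between genes, levels were compared per transcript length with the FPKM values that the authors deposited. Thbd had the highest FPKM of the set in all groups, at 162 in PQ 1w, 348 in control 1w, 222 in PQ 4w and 361 in control 4w lungs, and Vwf came next, at 97.4 in PQ 1w, 82.8 in control 1w, 51.4 in PQ 4w and 87.8 in control 4w lungs. In control 1w lungs the order then ran through Plat at 45.1, Plaur at 36.2 and F3 at 27.8 to Tfpi at 15.1, F13a1 at 14.6, Plau at 3.54 and Procr at 3.52. The ranges of Plaur and F3, of Tfpi and F13a1 and of Plau and Procr overlapped there, so these neighbours did not differ beyond their spread. In PQ 1w lungs F3 at 53.8, Plaur at 51.5 and Plat at 49.9 had overlapping ranges, F13a1 at 29.6 stood above Tfpi at 19.5, and Plau at 8.75 and Procr at 7.41 overlapped at the foot. In control 4w lungs Plat at 35.2, Plaur at 31.1 and F3 at 25.9 were neighbours with overlapping ranges, followed by Tfpi at 14.5, F13a1 at 6.45, Procr at 5.53 and Plau at 3.54, of which F13a1 and Procr overlapped. In PQ 4w lungs each of Vwf, F3 at 29.3, Plat at 23.4 and Plaur at 20.05 overlapped its neighbour in the order, Tfpi at 13.7 stood apart, and Procr at 7.61, F13a1 at 5.35 and Plau at 3.52 overlapped at the foot.

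**Figure D4:**
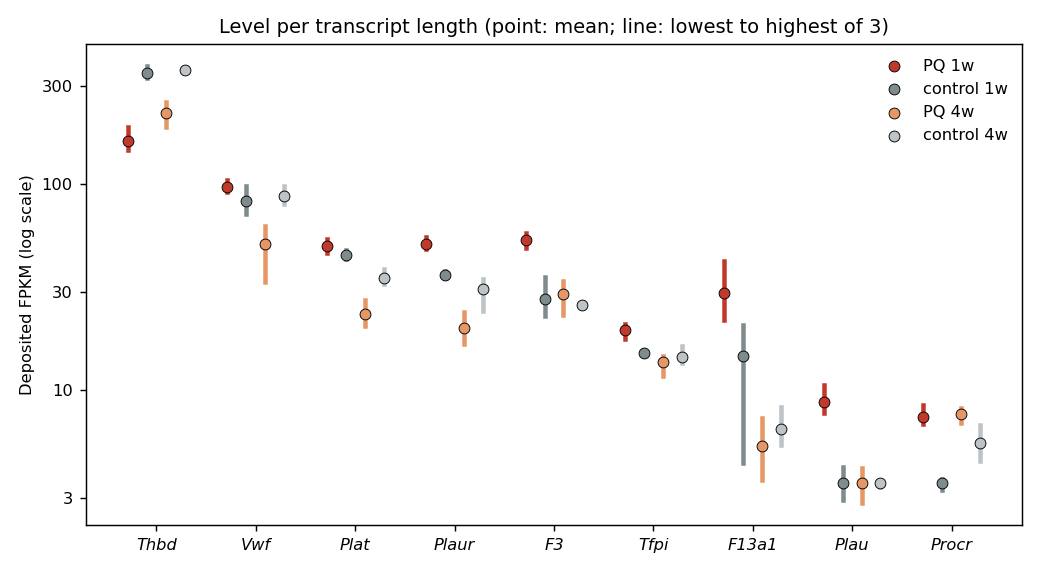
Deposited FPKM of the 9 genes in the 4 groups on a log axis, with a point at the mean of each group and a line over the range of its 3 libraries. Thbd and Vwf have the 2 highest mean levels in every group, and Plau and Procr are among the lowest.

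For each gene the pair of other genes with the most alike profile was found, as the smallest mean absolute difference of centred log2(CPM + 0.5) over the 12 libraries. Nearest to F3 was Actn1, an actin crosslinking protein, at 0.11, and then Rin1, a Ras effector, at 0.11. Thbd lay nearest to Arap3, a GTPase-activating protein, at 0.10 and to Tmcc3 at 0.10. Plat lay nearest to Pdia5, a protein disulfide isomerase, at 0.09 and to Plod2, a collagen lysyl hydroxylase, at 0.12. For Plaur these were Fstl3, a binder of activin, at 0.12 and Litaf at 0.13, for Plau they were Fhl3 at 0.12 and the histone variant gene H2afz at 0.13, and for Vwf they were Mfap2, a microfibril protein, at 0.11 and 6030408B16Rik at 0.14. Procr had Pyroxd2 at 0.13 and Gm10591 at 0.14, and Tfpi, whose own range was small, had Smap1 at 0.04 and Atp6v1h at 0.05. For F13a1, the most variable gene of the set in every group, Krt15 was at 0.35 and Ccr1, a chemokine receptor, at 0.38. The measure grows with a gene's own variation, so the larger distances of F13a1 do not by themselves mean a less alike profile. Over all genes compared, the median difference was 0.24 from Tfpi and 1.05 from F13a1, the lowest and highest of the 9. Within the set Plaur and Plat were the closest, at 0.15, followed by Vwf and Plat at 0.22 and F3 and Plau at 0.28.

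The rest of the pathway was followed in 8 lists of 73 genes, of which 64 were tested. At 1w 25 rose, 16 fell and 23 did not pass, where 48.8% of all tested genes passed, and the median log2 effect was 0.21 over the 64 genes and 0.00 over all genes. At 4w 3 rose, 9 fell and 52 did not pass, where 12.1% of all tested genes passed, and the median was -0.04. In the interaction 5 of the 64 were higher and 17 lower, near the 32.0% of all tested genes that passed. Several genes whose products reach plasma from the liver did not pass the filter on low counts: F9, F12, Fgb, Kng1, Plg, Cpb2, Hrg and Serpina5 were not tested, and the highest level of any of them in any library was 0.451 CPM.

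Among 12 tested genes of the coagulation factor list F7, Fga and Kng2 rose and F5 and Klkb1 fell at 1w, and Kng2 alone passed at 4w. The list also held Lman1 and Mcfd2, which are not coagulation factors themselves, and neither passed at either time. Fga was at low levels, with means of 0.794 CPM in PQ 1w and 0.240 CPM in control 1w lungs. F7, the partner of tissue factor, had 30.3, 46.4 and 38.8 CPM in PQ 1w lungs, against 12.2, 12.95 and 12.3 CPM in control 1w lungs. It rose with F3, its receptor, 3.06-fold (log2 1.61 ± 0.15, adjusted p = 4.90e-06), and at 4w its effect was 0.16 (adjusted p = 0.554). Kng2, a kininogen gene, was at low levels, with means of 2.02 CPM in PQ 1w and 0.278 CPM in control 1w lungs (log2 2.82 ± 0.62, adjusted p = 0.00257), and 4.998 CPM in PQ 4w and 0.170 CPM in control 4w lungs (log2 4.75 ± 0.64, adjusted p = 0.00140). F8, whose product travels bound to von Willebrand factor, did not pass at 1w (log2 0.42, adjusted p = 0.165) or at 4w (log2 0.53, adjusted p = 0.153).

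Of 10 tested anticoagulant genes Pros1, Serpina10, Serpine2 and Tfpi2 rose and Proz fell at 1w, and 1 rose at 4w. Serpine2, which encodes protease nexin 1, an inhibitor of thrombin and urokinase, had 294, 511 and 380.4 CPM in PQ 1w lungs, against 129, 133 and 132 CPM in control 1w lungs. That was a 2.99-fold rise (log2 1.58 ± 0.15, adjusted p = 4.60e-06), and at 4w it had means of 166 CPM in PQ and 119 CPM in control lungs (log2 0.41 ± 0.15, adjusted p = 0.0883), which passed with DESeq2 (0.0296), in a fit of only the groups compared (0.0306) and without PQ 1w replicate 1 (0.0226) or 2 (0.0156). Tfpi2, a Kunitz-type inhibitor related to Tfpi, averaged 8.03 CPM in PQ 1w and 2.01 CPM in control 1w lungs (log2 1.98 ± 0.18, adjusted p = 3.99e-06). Serpina10, the inhibitor of factor Xa that needs protein Z, was the gene that rose at 4w, at 0.901 CPM in PQ and 0.264 CPM in control lungs (log2 1.67 ± 0.42, adjusted p = 0.0230). That call was lost without control 4w replicate 1 (0.0748) or 3 (0.0797) or PQ 4w replicate 1 (0.0569) or 3 (0.0677).

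In the vitamin K cycle, which activates several clotting factors, Ggcx fell at 1w, with means of 43.3 CPM in PQ and 61.2 CPM in control lungs (log2 -0.51 ± 0.07, adjusted p = 0.000145). None of the 4 genes passed at 4w, where Nqo1 had a log2 effect of -0.83 ± 0.26 (adjusted p = 0.0563) that passed with DESeq2 (0.0319), without control 4w replicate 3 (0.0493) and without PQ 1w replicate 1 (0.0400). Vkorc1 missed at 1w (log2 0.19, adjusted p = 0.126) and passed without control 1w replicate 2 (log2 0.32, adjusted p = 0.00628). Of the 4 thrombin and protease-activated receptors F2r and F2rl3 rose and F2rl2 fell at 1w, and none passed at 4w, where F2rl1 had a log2 effect of 0.19 (adjusted p = 0.427) and F2rl3 one of 0.56 (adjusted p = 0.225). F2rl3 averaged 1.89 CPM in PQ 1w and 0.924 CPM in control 1w lungs (log2 1.02 ± 0.26, adjusted p = 0.00659). F2rl2 averaged 1.16 CPM in PQ 1w and 2.55 CPM in control 1w lungs (log2 -1.15 ± 0.26, adjusted p = 0.00298).

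Of 4 tested genes in the list of plasminogen and its inhibitors, Serpinb2 and A2m rose and none fell at 1w, and none passed at 4w. The median log2 effect of the list was 0.68 at 1w and 0.10 at 4w. Serpinb2, an inhibitor of urokinase, was at low levels, with means of 0.920 CPM in PQ 1w and 0.370 CPM in control 1w lungs (log2 1.29 ± 0.41, adjusted p = 0.0198). That call was lost with DESeq2 (0.0536) and without control 1w replicate 3 (0.0715) or PQ 1w replicate 2 (0.0662) or 3 (0.0613). Serping1, which encodes the C1 inhibitor, did not pass at 1w (log2 0.07, adjusted p = 0.567) or at 4w (log2 0.13, adjusted p = 0.402). A2m, a broad protease inhibitor, averaged 6.65 CPM in PQ 1w and 0.887 CPM in control 1w lungs (log2 2.89 ± 0.29, adjusted p = 8.63e-06) and did not pass at 4w (log2 -0.79, adjusted p = 0.318).

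Of 9 genes whose products bind plasminogen, its activators or their complexes at the cell surface or in the matrix, 7 rose at 1w, where 25.9% of all tested genes rose. Vtn, which encodes the matrix protein vitronectin, fell, and Itgam did not pass. S100a10, which holds plasminogen and tissue plasminogen activator at the cell surface with Anxa2, averaged 229 CPM in PQ 1w and 136 CPM in control 1w lungs (log2 0.74 ± 0.11, adjusted p = 0.000125). Eno1 averaged 393 CPM in PQ 1w and 172 CPM in control 1w lungs (log2 1.18 ± 0.08, adjusted p = 3.62e-07), but near-identical copies make its counts uncertain. Its effect at 4w was 0.22 ± 0.08 (adjusted p = 0.0849) and passed without TMM scaling (0.0407), with DESeq2 (0.0271), with limma on FPKM (0.0423 and 0.0427) and without PQ 1w replicate 1 (0.0341). Itgb2, the shared chain of leukocyte integrins, was the gene of this list that rose at 4w, at 114 CPM in PQ and 69.5 CPM in control lungs (log2 0.65 ± 0.16, adjusted p = 0.0203). Its call was lost in a fit of only the groups compared (0.0593), without control 4w replicate 1 (0.0553) or 3 (0.0709) and without PQ 4w replicate 1 (0.0611).

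**Figure D5:**
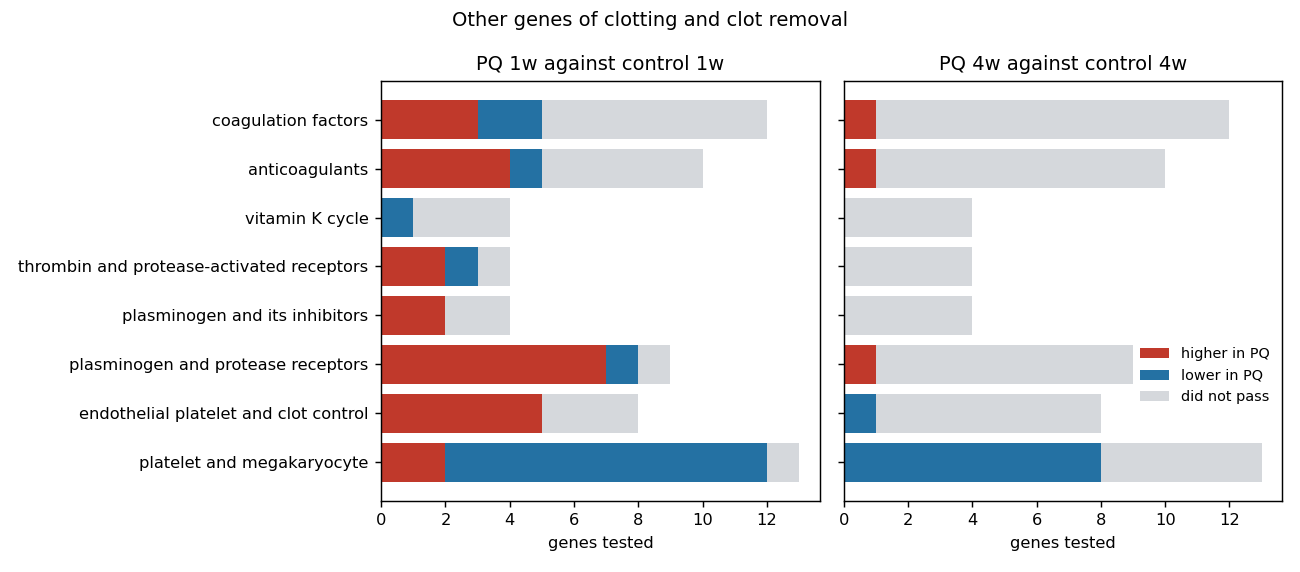
Number of tested genes in each of the 8 pathway lists that were higher in PQ, lower in PQ or did not pass, with PQ 1w against control 1w on the left and PQ 4w against control 4w on the right. In the platelet and megakaryocyte list 10 of 13 genes were lower at 1w and 8 at 4w, and in the list of plasminogen and protease receptors 7 of 9 were higher at 1w and 1 at 4w.

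Of 8 genes for products of endothelium and other cells that act on platelets and clots, some holding them back and some, such as Selp, promoting them, Nos3, Nt5e, Ptgis, Ptgs1 and Selp rose and none fell at 1w, while Nos3 was the 1 that passed at 4w, where it fell. Ptgs1, the constitutive cyclooxygenase, had 199, 208 and 199 CPM in PQ 1w lungs, against 81.4, 86.3 and 84.1 CPM in control 1w lungs (log2 1.26 ± 0.09, adjusted p = 6.73e-07). Nt5e, the enzyme that makes adenosine at the cell surface, had 199.5, 304 and 223 CPM in PQ 1w lungs, against 98.1, 87.0 and 93.9 CPM in control 1w lungs (log2 1.37 ± 0.14, adjusted p = 1.06e-05). Selp, P-selectin, which is stored with von Willebrand factor, averaged 9.63 CPM in PQ 1w and 5.45 CPM in control 1w lungs (log2 0.81 ± 0.18, adjusted p = 0.00305). At 4w Selp had a log2 effect of -0.51 (adjusted p = 0.0951), which passed without PQ 4w replicate 2 (-0.69, adjusted p = 0.0392). Nos3, the endothelial nitric oxide synthase, averaged 73.8 CPM in PQ 1w and 54.4 CPM in control 1w lungs (log2 0.43 ± 0.12, adjusted p = 0.00957), and 46.2 CPM in PQ 4w and 60.4 CPM in control 4w lungs (log2 -0.46 ± 0.12, adjusted p = 0.0270). The Nos3 call at 4w was lost with limma on FPKM (0.0567 and 0.0602) and without control 4w replicate 1 (0.0984) or 3 (0.101) or PQ 4w replicate 1 (0.0589), 2 (0.0602) or 3 (0.0568).

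Most platelet and megakaryocyte genes were lower in PQ lungs at both times. At 1w 10 of 13 fell, Itgb3 and Pf4 rose and Gp1bb did not pass, and at 4w 8 fell and 5 did not pass, where 22.9% of all tested genes fell at 1w and 6.39% at 4w. Ppbp, a chemokine of platelet granules, had 4.09, 5.13 and 5.23 CPM in PQ 1w lungs, against 20.2, 19.6 and 17.0 CPM in control 1w lungs (log2 -1.99 ± 0.17, adjusted p = 2.75e-06). At 4w it averaged 20.7 CPM in PQ and 35.8 CPM in control lungs (log2 -0.86 ± 0.15, adjusted p = 0.00531). Tubb1, the tubulin of platelets, averaged 6.08 CPM in PQ 1w and 13.6 CPM in control 1w lungs (log2 -1.17 ± 0.15, adjusted p = 5.73e-05), and 11.8 CPM in PQ 4w and 20.2 CPM in control 4w lungs (log2 -0.85 ± 0.14, adjusted p = 0.00402). Itgb3, an integrin chain that other cells also express, rose at 1w, at 80.8 CPM in PQ and 58.6 CPM in control lungs (log2 0.45 ± 0.10, adjusted p = 0.00354). At 4w Itgb3 fell, at 35.4 CPM in PQ and 57.5 CPM in control lungs (log2 -0.77 ± 0.11, adjusted p = 0.00170). The summed level of the 13 genes was 134 to 145 CPM in PQ 1w, 135 to 141 CPM in control 1w, 113 to 124 CPM in PQ 4w and 163 to 221 CPM in control 4w lungs. Itgb3 and Pf4, which rose at 1w, held a large part of the sums at that time. Pf4 averaged 22.2 CPM in PQ 1w and 8.42 CPM in control 1w lungs. The similar sums at 1w therefore do not show the lower levels of the 10 genes that fell. Platelets carry Vwf and F13a1, and the part of platelet transcripts in the results for these genes was not tested.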

How the data were processed

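RNA from homogenized lung was sequenced on a BGISEQ 500 and the labels' protocols set minimum values of 7.0 for RNA integrity and of 1.0 for the ratio of 28S to 18S. HISAT and RSEM 1.2.12 with mm10 are named in the submitters' processing notes. The authors deposited RSEM's expected counts per gene, not scaled to depth, per the file headers. FPKM values, scaled to transcript length and library size by the authors, were deposited beside them with a transcript length in bases, per the file headers. For the HISAT version, annotation release and strandedness, the status is the same: not given in the sources used here.

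A gene missing from a library's table was taken as 0, and the lowest listed FPKM was 0.01. Of the expected counts that the tables list 69.7% were exactly whole, genes missing from a table left out, and all were rounded for testing. The authors' combined FPKM table differed from the single tables by at most 0, with 0 unassigned columns, and 27 symbols that had become dates were restored from gene IDs. Because the deposited length was not constant over libraries for 25.8% of genes, FPKM served for levels between genes and counts for differences between groups. Printed CPM were scaled to library totals, whereas the fit used TMM scaling, with factors of 0.974 to 1.06.

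Groups were tested by edgeR's quasi-likelihood method (glmQLFit, glmQLFTest) on 12 libraries with 4 group means after filterByExpr (minimum count 10, total 15), which kept 15921 genes, with Benjamini-Hochberg adjustment and a threshold of 0.05. A standard error is the absolute log2 effect over the square root of its F statistic. Within-library ratios, with 0.5 CPM added, and transcript lengths were compared by two-sided exact permutation tests. Likeness was computed among tested genes with a mean of at least 1 CPM. Alternatives were other scalings, no filter, DESeq2, limma on log2 FPKM, a fit of only the groups compared, a replicate block and leaving out each library. The fit was tested on simulated data. Tests ran in R 4.3.3, with DESeq2 1.42.0, edgeR 4.0.16 and limma 3.58.1. Tables and figures were made in Python 3.11.15, with scipy 1.17.1, numpy 2.4.6, pandas 2.3.3 and matplotlib 3.10.9.

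The 9 genes, the pathway and marker lists and the tests were chosen with earlier results of these data known. All 9 were named, with the 2 genes of the smallest p per pathway list and time and the 2 genes nearest to each in profile. F13b, a listed gene, was not analysed here. Another listed gene and the ratio that needs it are not reported here. Same-numbered replicates did not deviate together: correlations of 18 pairs were -0.407 to 0.361, with 5 above 0.1.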

Additional observations from a re-analysis of the deposited data

Results flagged for a closer look

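Among the genes named here, the paraquat effect differed between times for 7 of the 9 followed genes and for 15 of the genes named from the pathway lists. This was judged by the interaction term of the edgeR fit, which 32.0% of all tested genes passed. The pathway genes had been named for their small p at 1w or 4w in the same fit, so their count does not measure the pathway. Values are the log2 effect of PQ against control at 4w minus that at 1w. The followed genes had differences of -0.84 for F3, -0.67 for Procr, -1.06 for Vwf, -0.45 for Tfpi, -1.37 for Plau, -1.20 for Plaur and -0.79 for Plat.

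In the pathway, the partner of tissue factor, F7, differed by -1.46 (adjusted p = 0.000542). The inhibitors Tfpi2, Serpine2 and A2m differed by -1.96, -1.17 and -3.67, with adjusted p from 0.000378 to 0.00135. The plasminogen receptors Eno1 and S100a10 differed by -0.96 and -0.95 (adjusted p = 0.000115 and 0.000697). Ptgs1, Nt5e, Nos3 and Selp, from the list of genes for products that act on platelets and clots, differed by -1.25, -1.47, -0.89 and -1.32. Their adjusted p ran from 6.5e-05 to 0.00272. Itgb3 differed by -1.22 (adjusted p = 0.000176) and Nqo1 by -1.33 (adjusted p = 0.0158). Another 3 differences had the other sign, because these genes had their lower effect at 1w: Ggcx at 0.48 (adjusted p = 0.00472), F2rl2 at 1.43 (adjusted p = 0.00924) and the platelet gene Ppbp at 1.13 (adjusted p = 0.00327). Of all 64 tested genes of the pathway lists 22 passed, 5 with a higher and 17 with a lower effect at 4w, near the 32.0% of all tested genes.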

How the results depend on the processing

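Of 351 values for the 9 genes under settings other than leaving out a library, 345 kept their side of the threshold. Another 3 lost a call, 3 gained one and 0 changed direction with a call in either fit. Of 540 with a library left out, 514 were kept, 19 lost, 7 gained and 0 reversed in that sense. A change of sign without a call in either fit was counted as kept. For F3 at 4w, for example, the log2 effect ranged from -0.02 to 0.25 over the leave-one-out fits. The count at 4w was 4 of the 9 genes, and 2 with only the groups compared, where 746 of all tested genes passed against 1932. For control 4w against control 1w the count was 1, and 2 with RLE scaling, with DESeq2 or with only the groups compared. Leaving out each library gave counts of 5 to 6 at 1w, 2 to 4 at 4w, 5 to 8 for the interaction, 7 to 8 for PQ 4w against PQ 1w and 0 to 2 for the controls. Over all tested genes they gave 6704 to 8264 at 1w, 641 to 2104 at 4w, 4107 to 5250 for the interaction, 7463 to 8758 for PQ 4w against PQ 1w and 123 to 2570 for the controls. The pathway lists had 41 calls at 1w, with a range of 36 to 42, and 12 at 4w, with a range of 7 to 15 and the low end without control 4w replicate 1 or PQ 4w replicate 1.

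Library totals in place of TMM gave 1370 higher and 631 lower calls at 4w, against 915 and 1017. The numbers did not pair the libraries; with them as a replicate block the 9 genes gave 6 calls at 1w and 4 at 4w, and all genes 7636 and 1646, and no count moved over 1.5 times. With 3 libraries a group, an exact test cannot go below 0.1, and genes under the filter could not be judged at this depth.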
